A study of Mus musculus with 60 samples.

Results

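The histone marks H4K8ac and H3K27me3 were described at 10 genes of the neuronal growth cone and cytoskeleton (Gap43, Basp1, Marcks, Stmn2, Dcx, Map2, Mapt, Tubb3, Nefl and Ncam1) in neurons of the mouse hippocampus that express Emx1. Every peak whose assigned mouse gene symbol was one of these 10 was taken from 12 peak lists, which gave 406 peaks of 256375 in all, 291 of them H4K8ac and 115 H3K27me3. Peaks were assigned to 9 of the 10 genes, and Tubb3 had none in any list.

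The libraries were made by CUT&RUN-seq, in which an antibody directs cutting and release of the DNA it is bound to inside isolated nuclei. All groups were male Emx1-NuTRAP mice, which carry Emx1-Cre and a Cre-dependent NuTRAP reporter that tags nuclei and ribosomes of Emx1-expressing cells, mostly excitatory neurons but also neural progenitors. Exercised mice ran on a wheel in their cage between postnatal days 21 and 41 (early-life exercise), sedentary mice had none, and nuclei were taken on the day after. In the SIT arm (Simultaneous INTACT and TRAP) nuclei and ribosome-bound RNA came from both hippocampi in the same tube, with 4 samples per antibody and condition, whereas the left separate and right separate arms used nuclei of that hemisphere alone, with 3 samples each and from different mice, since the other hemisphere served for RNA. The labels put 60 samples in groups, of which 20 were IgG controls with no list here. The authors excluded several exercised H4K8ac libraries of the separate isolations, a large part of those made, and a single one of SIT, for a high false discovery rate of peaks. They also left out some sedentary and exercised animals on the basis of their RNA data, and give fewer mice of either condition than the SIT groups hold for their comparison of peaks with RNA. The lists do not say which libraries they pool, so any of them may rest on fewer samples than the labels give. The lists do not separate samples, so each list is 1 pooled value with no SD, its read depth is unknown, and it gives positions and widths but no signal height.

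H4K8ac is an acetylation of histone H4 found at active promoters and enhancers, and H3K27me3 is the methylation laid down by Polycomb repressive complex at silenced genes. Growing axons and dendrites are led by growth cones, where membrane-bound proteins such as Gap43, Basp1 and Marcks organise actin, and where tubulin is assembled, bundled and taken apart under the control of Stmn2, Dcx, Map2 and Mapt. In the hippocampus these genes are known for roles in axon growth, dendrite shape, migration of newborn neurons and synaptic plasticity.

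The 12 lists held between 9899 and 38136 peaks and covered 24.5 to 135.6 Mb. Among marker genes of the labelled cell type, 8 of 8 excitatory neuron markers had an H4K8ac promoter peak in at least 1 list, with 3 to 5 per list, against 0 of 8 GABAergic interneuron markers, 5 of 6 astrocyte, 2 of 6 oligodendrocyte, 2 of 6 microglia and 1 of 6 endothelial markers. In the H3K27me3 lists all 8 GABAergic markers had a promoter peak in at least 1 list. Astrocyte markers with an H4K8ac promoter peak numbered 1 to 4 per list, Aqp4 having none, and their part in the values below was not tested.

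H4K8ac peaks were assigned to 8 of the 10 genes in the SIT sedentary list, where 51.0% of all 16994 genes with a peak in any list were listed, and to 8 in the SIT exercised list (63.2% of all genes). The left separate lists held 8 of the 10 when sedentary (60.1% of all genes) and 5 when exercised (30.0%), and the right separate lists 7 when sedentary (49.0%) and 8 when exercised (34.1%). Gap43, Basp1, Stmn2, Map2 and Ncam1 were in all 6 H4K8ac lists, as were 19.3% of all genes. At least 1 list held 9 of the 10 (79.9% of all genes), each with an H4K8ac promoter peak in at least 1 list (57.0%). At least 1 H3K27me3 list held 4 of the 10 genes (43.5% of all genes), with a promoter peak for 1 (25.2%). The SIT lists held 2 when sedentary (22.5% of all genes) and 3 when exercised (38.1%), the left separate lists 4 (27.5%) and 3 (30.6%), and the right separate lists 3 (35.4%) and 2 (20.6%). Marcks and Nefl were in all 6 H3K27me3 lists, as were 16.5% of all genes, and Basp1 was in 4 and Ncam1 in 1. By position, whatever gene a peak was assigned to, no H3K27me3 peak lay over any of the 10 genes in any list, and 183 H4K8ac peaks lay over 8 of them. Of 16624 genes with a peak in any list and a position in GENCODE, 27.1% had an H3K27me3 peak and 64.3% an H4K8ac peak over them in at least 1 list.

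**Figure D1:**
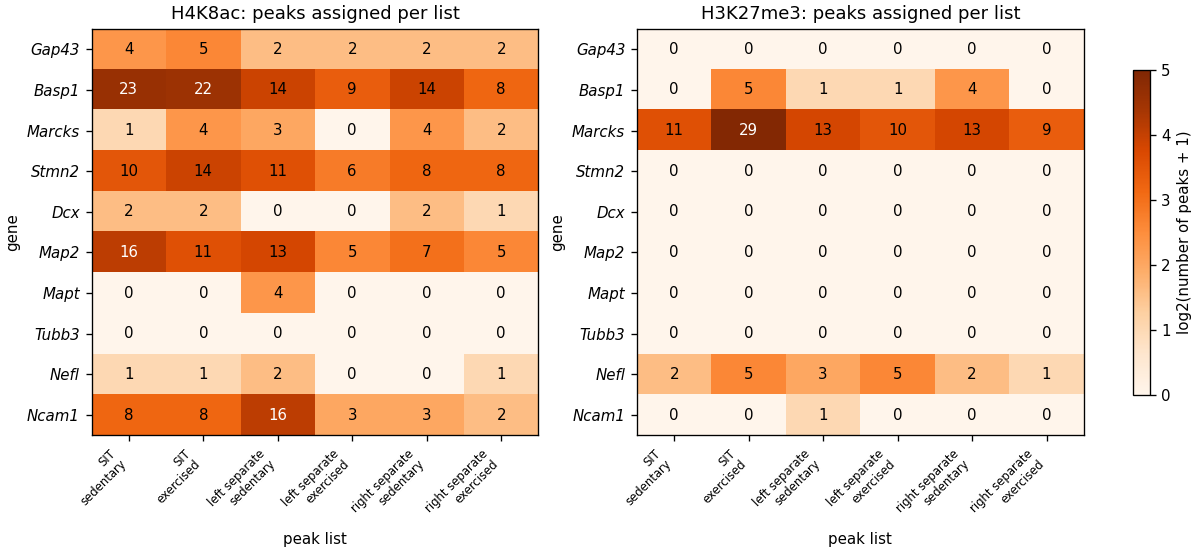
Number of H4K8ac (left panel) and H3K27me3 (right panel) peaks assigned to each of the 10 genes (rows) in each of the 6 lists of a mark (columns); color shows log2(number of peaks + 1). Basp1 reaches 23 H4K8ac peaks in a list and Marcks 29 H3K27me3 peaks, whereas Tubb3 is at 0 in all 12 lists.

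The 3 growth cone membrane proteins differed in where their marks lay. Gap43 (ENSMUSG00000047261, chr16:42248442-42340651, minus strand, GRCm38) encodes a phosphoprotein of the inner membrane of growing axon tips. It had 4 H4K8ac peaks in the SIT sedentary list, 5 in the SIT exercised list and 2 in each of the 4 separate lists. Summed peak width was 5.88 kb sedentary and 11.11 kb exercised in SIT, 2.72 and 4.77 kb for left separate, and 4.50 and 3.50 kb in the right separate arm. Peaks recurred at 2 intergenic regions before the gene, centered 30.2 kb and 104.1 kb upstream of its start, each in 5 of the 6 lists. The right separate exercised list lacked the nearer region and the left separate sedentary list lacked the farther one. A further region, over the start of a shorter annotated Gap43 transcript 65.0 kb inside the gene, was present in both SIT lists and the right separate exercised list. At the 5′ end of the gene only the SIT sedentary list had a promoter peak, which began 1883 bp inside it. No H3K27me3 peak was assigned to Gap43, and the nearest in any list was over 2 Mb from its start.

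Sequences are shown for the places where the peaks of most lists of a mark coincided, so that the recurrent regions can be seen as DNA. Each is the central 200 bases of the stretch covered in the largest number of lists, read on the plus strand of GRCm38. Capitals mark matches, on either strand, to TGACGTCA (the cAMP response element), TGACG (its partial site, also contained in it), CAGCTG (an E-box), TATAAA and GGGCGG (a GC box). The Gap43 window at chr16:42444717-42444916 was intergenic, 104.2 kb upstream, and lay in a stretch of 835 bp covered in 5 lists. It held 4 CpG dinucleotides and none of the motifs.
Gap43 upstream region: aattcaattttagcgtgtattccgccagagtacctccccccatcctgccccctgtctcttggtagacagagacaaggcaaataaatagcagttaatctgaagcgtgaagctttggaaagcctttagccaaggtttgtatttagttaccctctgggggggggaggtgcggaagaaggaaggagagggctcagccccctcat
The Basp1 window at chr15:25026964-25027163 was 386.7 kb from the gene start on its 3′ side, in an intron of the predicted gene Gm2824, and lay in a stretch of 1529 bp covered in all 6 lists.
Basp1 distal region: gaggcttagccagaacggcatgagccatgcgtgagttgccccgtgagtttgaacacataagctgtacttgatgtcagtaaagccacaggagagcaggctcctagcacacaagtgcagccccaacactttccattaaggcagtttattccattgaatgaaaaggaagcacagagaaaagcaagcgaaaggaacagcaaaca

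Basp1 (ENSMUSG00000045763, chr15:25363277-25413764, minus strand), a membrane protein related in function to Gap43, had the most H4K8ac peaks of the 10 genes in total, though Ncam1 had more in left separate sedentary and Stmn2 as many in right separate exercised. The numbers were 23 sedentary and 22 exercised in SIT, 14 and 9 for left separate, and 14 and 8 in the right separate arm. Of these 90 peaks, 19 lay over the gene and 71 lay beyond its 3′ end, and 67 (74.4%) were more than 100 kb from the assigned start. The next protein-coding gene on that side, Cdh18, is 1888.9 kb away, and nearest-gene assignment therefore gave Basp1 peaks with centers up to 1006.5 kb from its start. Regions centered 386.2, 394.1 and 421.5 kb from the start were present in all 6 lists, and a region at 537.0 kb in all but the left separate sedentary list. The 3′ end of the gene, 51.5 kb from the start, carried H4K8ac in all lists but right separate exercised. Over the 6 lists Basp1 summed to 209.85 kb of H4K8ac, more than 98.8% of the 13585 genes with an H4K8ac peak.

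Peaks next to the start of Basp1 were few under its own name. A promoter peak was assigned to it in the SIT exercised list, beginning 236 bp inside the gene, and in the left separate sedentary list, beginning 1710 bp inside. A further 6 promoter peaks in 4 lists lay just beyond the start on the other side and were assigned to the neighboring Gm5468. They were found in both SIT lists and both sedentary separate lists. The promoter window of Basp1 in the RefSeq table (GRCm38.p6, 300 bases) was covered by a peak in none of the 12 lists. It is shown because peaks flanked it on both sides. The 250 bases before the start, chr15:25413765-25414014, are given on the minus strand with motifs in capitals.
Basp1 promoter: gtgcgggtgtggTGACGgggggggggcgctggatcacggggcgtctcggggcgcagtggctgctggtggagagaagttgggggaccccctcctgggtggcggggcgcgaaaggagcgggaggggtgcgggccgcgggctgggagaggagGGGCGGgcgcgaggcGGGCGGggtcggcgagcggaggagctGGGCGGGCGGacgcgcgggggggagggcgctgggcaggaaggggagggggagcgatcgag
The 300 bases held 38 CpG dinucleotides, against a median of 7.0 over the 32851 promoters in the table. GGGCGG matched 4 times and TGACG once, motifs present in 35.7% and 20.8% of those promoters. Promoter windows were matched for 4 of the 10 genes. Those of Map2 (37 CpG), Tubb3 (26) and Dcx (3 in either entry) were also covered by no peak in any list, and TATAAA, present in 13.6% of promoters, matched in Dcx alone among the 4.

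H3K27me3 at Basp1 was also distal. There were 5 peaks in the SIT exercised list, none in SIT sedentary, 1 in each left separate list, 4 in right separate sedentary and none in right separate exercised, all 11 centered 114.6 to 857.2 kb from the start on the 3′ side. The lists with and without these peaks were thus of opposite condition in the SIT and the right separate arm.

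**Figure D2:**
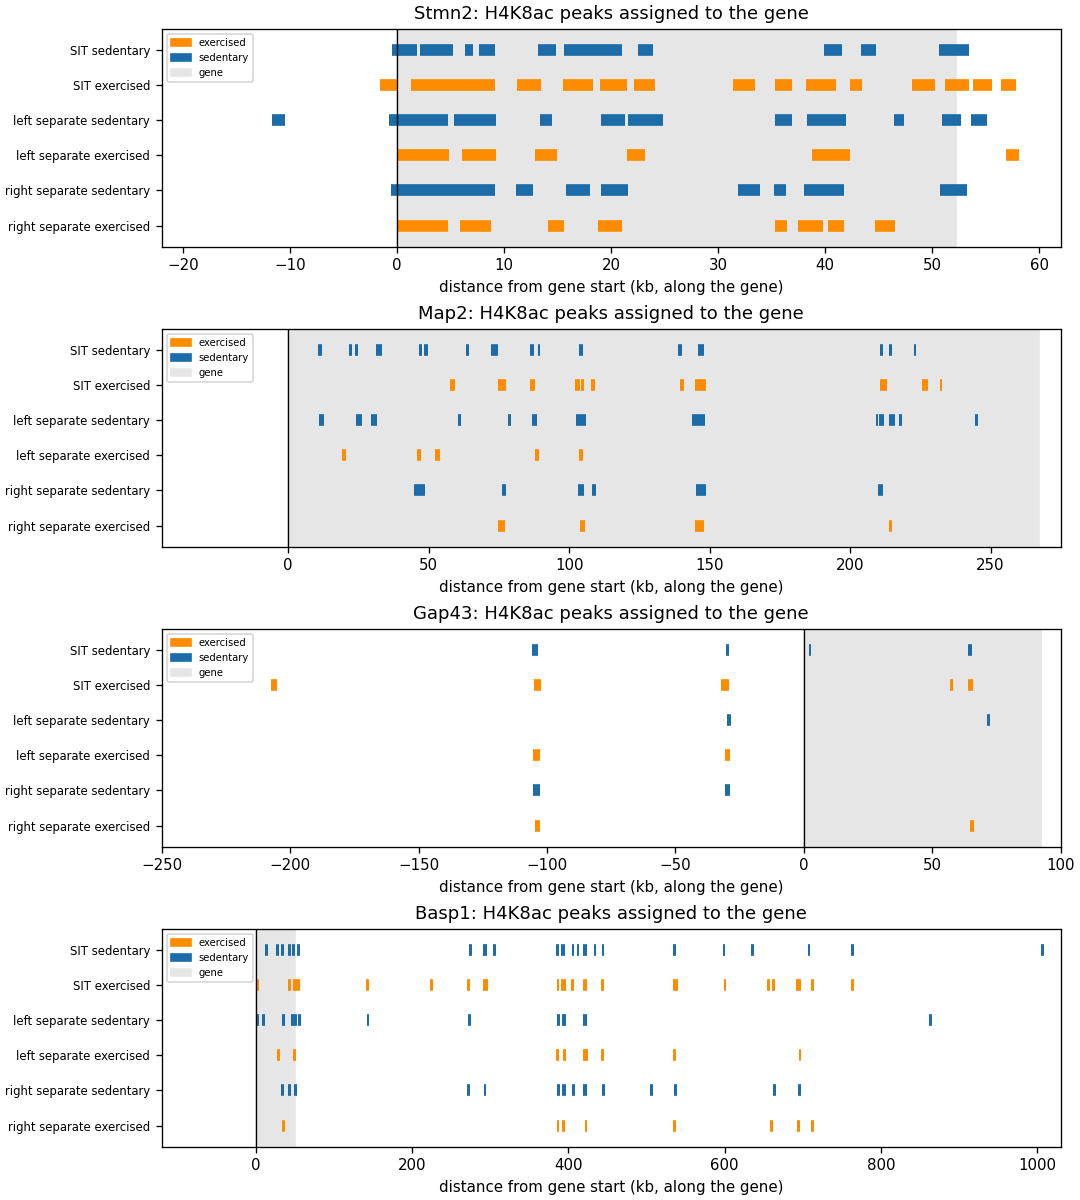
H4K8ac peaks assigned to Stmn2, Map2, Gap43 and Basp1 by distance from the gene start in kb, counted along the gene, with a row for each of the 6 lists; grey marks the gene, orange exercised and blue sedentary lists, and peaks too narrow to see are drawn at 0.3% of the axis. Stmn2 peaks fill much of the gene, whereas most Basp1 peaks lie beyond it, the farthest at 1006.5 kb.

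Marcks (ENSMUSG00000069662, chr10:37133375-37138920, minus strand), a protein kinase C substrate that binds actin and calmodulin at the membrane, was assigned peaks of both marks, mostly at different places. In no list did a peak of either mark lie over the gene itself. H4K8ac was sparse, with 1 sedentary and 4 exercised peaks in SIT, 3 and 0 for left separate, and 4 and 2 in the right separate arm. A promoter peak 1.3 kb upstream of the start was present in 4 lists and absent from SIT sedentary and left separate exercised. In these 4 lists it ended 234 to 932 bp before the start. Regions 219.0 and 259.9 kb upstream were each present in SIT exercised and in both sedentary separate lists. In SIT exercised the nearer of them lay between H3K27me3 peaks centered 215.6 and 221.7 kb upstream. H3K27me3 peaks were more numerous, at 11 sedentary and 29 exercised in SIT, 13 and 10 for left separate, and 13 and 9 in the right separate arm. Their median width was 2.88 kb, against 3270 bp over all H3K27me3 peaks. Their summed widths were 40.42 and 126.87 kb, 43.82 and 32.48 kb, and 55.91 and 23.07 kb. The SIT exercised list, which also covered the most genome of the H3K27me3 lists (135.6 Mb against 41.2 to 114.5 Mb), stood far above the other 5 in kb. Per Mb covered, Marcks H3K27me3 was 935.7 bases exercised and 559.3 sedentary in SIT, 351.4 and 593.2 for left separate, and 559.6 and 488.4 in the right separate arm. On that scale the SIT exercised list was still the highest, by a smaller margin, and the right separate difference turned its sign. Over the 6 lists Marcks made up 66.5 to 93.1% of the summed H3K27me3 width of the 10 genes, and its total of 322.57 kb exceeded that of 95.1% of the 7399 genes with an H3K27me3 peak.

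Most of these H3K27me3 peaks lay in the gene-poor stretch before Marcks, in which the next protein-coding gene, Rfpl4b, is 1681.6 kb away. Of 85 peaks, 79 were upstream and 6 downstream, and 69 (81.2%) lay more than 100 kb from the assigned start. Upstream, 5 regions centered 131.1 to 186.4 kb from the start were present in all 6 lists. On the other side of the gene, 62.9 kb from the start, H3K27me3 was present in every list except left separate exercised. An H4K8ac region at 65.6 kb, present in the SIT and right separate lists, adjoined it, and in the SIT exercised list the H4K8ac peak at chr10:37072904-37074417 shared 1479 bp with an H3K27me3 peak. The centers of the 2 marks are shown as sequence. The H4K8ac window at chr10:37140319-37140518 was 1.5 kb upstream of Marcks, in an exon of the gene 5930403N24Rik, and covered in 4 lists.
Marcks H4K8ac region: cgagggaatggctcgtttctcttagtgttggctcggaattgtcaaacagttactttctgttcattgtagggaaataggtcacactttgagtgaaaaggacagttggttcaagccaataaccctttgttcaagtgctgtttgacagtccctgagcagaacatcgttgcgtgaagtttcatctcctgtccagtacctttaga
The H3K27me3 window at chr10:37278722-37278921 was intergenic, 139.9 kb upstream, and covered in 6 lists.
Marcks H3K27me3 region: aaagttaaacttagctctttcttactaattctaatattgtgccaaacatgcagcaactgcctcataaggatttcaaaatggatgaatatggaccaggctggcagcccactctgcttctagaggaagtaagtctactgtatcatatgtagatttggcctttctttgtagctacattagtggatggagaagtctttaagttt
The first held 5 CpG and the second 0, against a median of 2.0 in the equivalent windows of all regions present in at least 5 lists of either mark, and neither held any of the motifs.

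**Figure D3:**
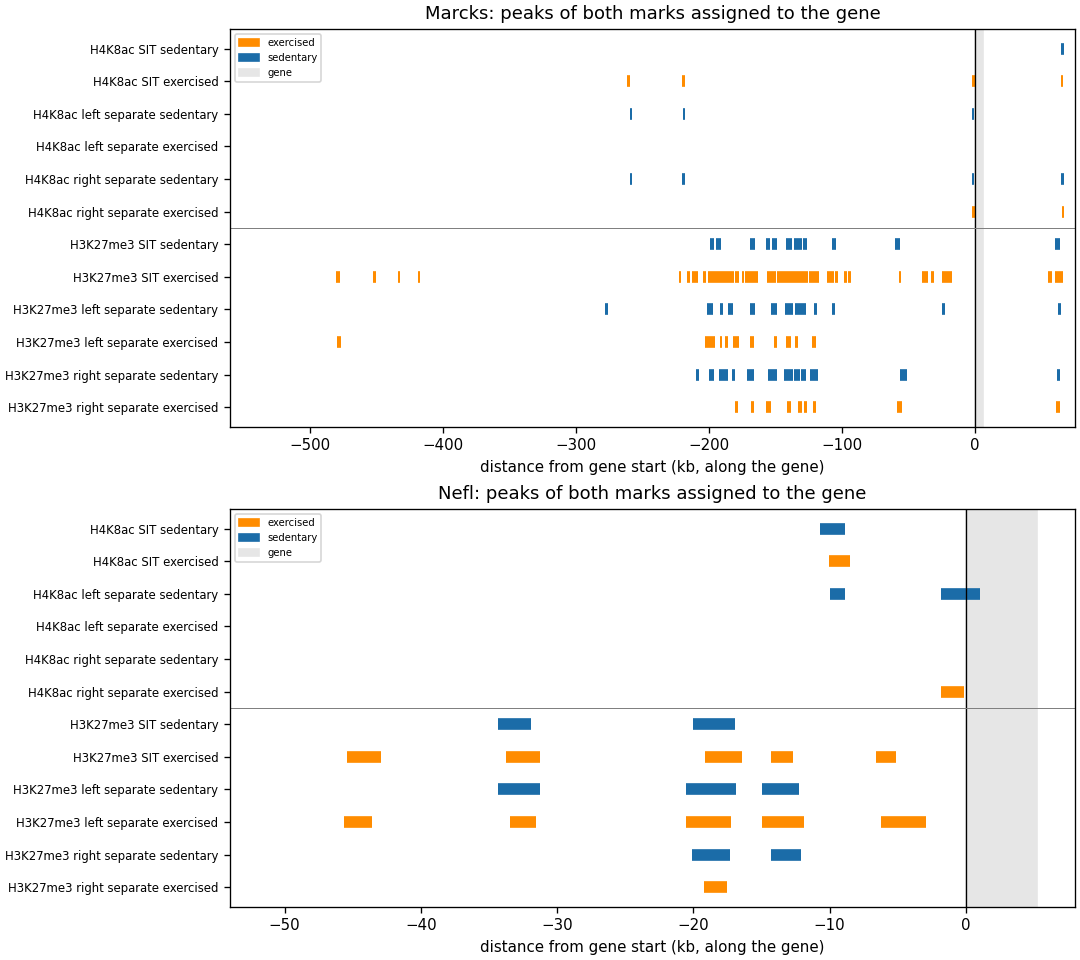
Peaks of both marks assigned to Marcks and Nefl by distance from the gene start in kb, counted along the gene, with the 6 H4K8ac lists above the line and the 6 H3K27me3 lists below it; grey marks the gene, orange exercised and blue sedentary lists, and peaks too narrow to see are drawn at 0.3% of the axis. H3K27me3 peaks of Marcks crowd between 100 and 220 kb upstream, away from the H4K8ac peaks at the start, and an H4K8ac region present in 3 lists lies at the far end of that stretch, 219.0 kb upstream.

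Among the microtubule genes, Stmn2 (ENSMUSG00000027500, chr3:8509360-8561606, plus strand) had the densest H4K8ac. Stmn2 (SCG10) binds free tubulin dimers in growth cones and keeps microtubules dynamic. Its H4K8ac peaks numbered 10 sedentary and 14 exercised in SIT, 11 and 6 for left separate, and 8 and 8 in the right separate arm. They covered 39.0 and 53.9% of the gene in SIT, 43.8 and 29.3% for left separate, and 45.9 and 34.8% in the right separate arm. No other of the 10 genes passed 20.4% in any list. Per Mb covered by the list, the summed width of Stmn2 H4K8ac was 474.6 bases sedentary and 423.3 exercised in SIT. It was 407.6 and 643.7 for left separate and 455.2 and 741.8 in the right separate arm, so the difference turned its sign in every arm. A promoter peak was assigned in all 6 lists, and the first base of the gene lay inside a peak in the 3 sedentary lists and in left separate exercised. In the SIT exercised and right separate exercised lists peaks came within 15 and 8 bp of it. No H3K27me3 peak was assigned to Stmn2 and the nearest was 230.6 kb away or more.
The Stmn2 window, chr3:8512748-8512947, was intronic, 3.5 kb from the start, in a stretch of 2553 bp covered in all 6 lists. It held the partial site TGACG, read on the minus strand, which 7.95% of 8088 such H4K8ac windows in the whole series also held.
Stmn2 intronic region: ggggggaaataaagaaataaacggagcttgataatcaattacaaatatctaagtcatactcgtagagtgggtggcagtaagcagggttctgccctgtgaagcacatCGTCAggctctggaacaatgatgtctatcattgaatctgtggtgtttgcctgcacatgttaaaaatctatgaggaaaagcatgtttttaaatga
The Map2 window, chr1:66279692-66279891, was intronic, 104.5 kb from the start, in a stretch of 488 bp covered in all 6 lists. It held an E-box, as did 10.6% of those windows.
Map2 intronic region: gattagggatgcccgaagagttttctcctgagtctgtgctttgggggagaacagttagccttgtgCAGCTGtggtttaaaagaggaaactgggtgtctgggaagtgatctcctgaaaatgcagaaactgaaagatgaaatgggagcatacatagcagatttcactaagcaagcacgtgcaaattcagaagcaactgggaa

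Map2 (ENSMUSG00000015222, chr1:66175273-66442583, plus strand) encodes the microtubule-associated protein of dendrites. It had 16 sedentary and 11 exercised H4K8ac peaks in SIT, 13 and 5 for left separate, and 7 and 5 for right separate, and all 57 lay inside the gene. Summed widths were 21.67 and 20.74 kb, 24.64 and 7.32 kb, and 14.05 and 8.48 kb, lower in the exercised list of each arm. Per Mb covered by the list they were 466.9 and 258.4 bases in SIT, 373.8 and 283.7 for left separate, and 250.4 and 345.8 in the right separate arm, where the exercised list was then the higher. The closest peak to the 5′ end of the gene was 10.6 kb inside it. Promoter peaks, 20 in 5 lists with none in left separate exercised, lay near internal starts of shorter transcripts, in 7 merged regions, of which those centered 74.8, 146.2 and 211.6 kb into the gene were in 4, 5 and 4 lists.

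Dcx (ENSMUSG00000031285, chrX:143855842-143933311, minus strand), the doublecortin microtubule protein of migrating young neurons, had 2 H4K8ac peaks in each SIT list, none in either left separate list, 2 in right separate sedentary and 1 in right separate exercised. A promoter peak was found in the SIT sedentary list alone, and the other peaks were intronic, 26.1 to 37.7 kb from the start. Chromosome X held few peaks in every H4K8ac list, from 1 in left separate exercised to 127 in SIT sedentary, so the left separate exercised list lacked nearly all of the chromosome as well as Dcx. Mapt (ENSMUSG00000018411, chr11:104231390-104332090, plus strand), which encodes the axonal microtubule protein tau, had 4 H4K8ac peaks in the left separate sedentary list, of 0.94 to 2.44 kb, and none in the other 5. Tubb3 (ENSMUSG00000062380, chr8:123411424-123422015, plus strand), the neuronal class of beta-tubulin, had no peak of either mark over it or within 10 kb of it in any list. The nearest H4K8ac peak was 30.9 kb or more from its start and the nearest H3K27me3 peak 126.3 kb or more. Neither Dcx, Mapt nor Tubb3 had an H3K27me3 peak. Without a signal height or depth, these zeros say that no peak was called and not that the mark was absent.

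Nefl (ENSMUSG00000022055, chr14:68083863-68089095, plus strand), the light chain of neurofilaments, carried H3K27me3 before its start and little H4K8ac. H3K27me3 peaks numbered 2 sedentary and 5 exercised in SIT, 3 and 5 for left separate, and 2 and 1 in the right separate arm. Their summed widths were 5.45 and 10.82 kb, 9.54 and 13.64 kb, and 5.05 and 1.72 kb. Per Mb covered by the list they were 75.4 bases sedentary and 79.8 exercised in SIT, and 129.1 and 147.6 for left separate. In the right separate arm they were 44.1 and 41.7, so the conditions lay far closer than in kb. All 18 peaks were centered 4.6 to 44.6 kb upstream, and the region 18.5 kb upstream was present in all 6 lists. The 2 outermost regions, 44.3 and 4.7 kb upstream, were present in the SIT and left separate exercised lists and in no sedentary list. Right separate exercised lacked both. The exercised H3K27me3 list was the longer one in SIT (25693 against 10279 peaks) and in left separate (18262 against 14491). The share of all regions with this pattern was not counted, and its cause was not tested. The peak nearest the start, in left separate exercised, was the only H3K27me3 peak of promoter class among the 10 genes and stopped 2903 bp short of it. H4K8ac had 1 peak in each SIT list, 2 and 0 for left separate, and 0 and 1 in the right separate arm. It covered the Nefl start in left separate sedentary and ended 105 bp before it in right separate exercised. In the other listed peaks it lay 9.7 kb upstream, between the H3K27me3 regions. The window at chr14:68065423-68065622, intergenic and 18.3 kb upstream, lay in a stretch of 1624 bp with H3K27me3 in all 6 lists, and held 2 CpG and none of the motifs.
Nefl H3K27me3 region: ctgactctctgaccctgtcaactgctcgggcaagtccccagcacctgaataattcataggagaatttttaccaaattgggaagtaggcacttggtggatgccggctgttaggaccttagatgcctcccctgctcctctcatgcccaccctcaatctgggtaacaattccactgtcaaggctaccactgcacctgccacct

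Ncam1 (ENSMUSG00000039542, chr9:49502136-49798925, minus strand), the neural cell adhesion molecule, had 8 H4K8ac peaks in each SIT list, 16 sedentary and 3 exercised for left separate, and 3 and 2 in the right separate arm. Of 40 peaks, 37 lay over the gene. The summed width was highest in left separate sedentary, 24.57 kb, against 2.69 to 13.39 kb in the other lists. An intronic region 175.2 kb into the gene was present in all 6 lists, and promoter peaks were present in every list but SIT exercised, 4 of them in a region 227.6 kb into the gene. Of its 23 merged H4K8ac regions, 17 were present in 1 list. The H3K27me3 peak of Ncam1, 2.24 kb wide in left separate sedentary, was centered 132.3 kb upstream.

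The effect of exercise was asked of each gene in 3 arms. In SIT the same 8 genes were listed for H4K8ac in both conditions (43.9% of all genes), where 19.3% of all genes were in the exercised list alone and 7.14% in the sedentary list alone. In the left separate arm Marcks, Mapt and Nefl were in the sedentary list alone (32.4% of all genes), none was in the exercised list alone (2.23%), and 5 were in both (27.8%). In the right separate arm Nefl was in the exercised list alone (4.93%), none was in the sedentary list alone (19.8%), and 7 were in both (29.2%). For H3K27me3, Basp1 was in the exercised list alone in SIT (15.9% of all genes, with 0.394% in the sedentary list alone), Ncam1 in the sedentary list alone in the left separate arm (3.08%, with 6.24% exercised alone), and Basp1 in the sedentary list alone in the right separate arm (15.9%, with 1.14% exercised alone). None of the 10 genes was in the list of the same condition alone in all 3 arms. That pattern was rare over all genes too, at 0.100% exercised alone and 0.712% sedentary alone for H4K8ac and 0.0824 and 0.0177% for H3K27me3, and 0 of 10 is near these shares. Marcks and Nefl were in both H3K27me3 lists of each arm (22.1, 24.4 and 19.5% of all genes in SIT, left and right separate). None of the peaks behind these gains and losses overlapped a peak of the other condition. The same held for most genes that changed in this way, namely 99.0% of those in the sedentary H4K8ac list alone in the left separate arm and 95.0% of those in the exercised one alone in the right separate arm. For H3K27me3 it held for 98.0% of genes in the exercised list alone in SIT and for 90.4 and 98.4% of those in the sedentary list alone in the left and right separate arms.

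Summed over the 10 genes, H4K8ac width was 150.44 kb exercised and 111.07 kb sedentary in SIT, a difference of 39.38 kb. It was 56.27 and 116.39 kb in the left separate arm, a difference of -60.12 kb, and 57.71 and 101.87 kb in the right separate arm, a difference of -44.16 kb. For H3K27me3 the differences were 108.59 kb in SIT, -9.94 kb in the left separate arm and -47.96 kb in the right separate arm. The longer H4K8ac list was the exercised one in SIT and the sedentary one in both separate arms. As a share of all bases the list covered, the H4K8ac difference turned its sign in every arm, to 1874.4 exercised against 2393.3 sedentary bases per Mb in SIT, 2182.3 against 1765.5 for left separate, and 2353.9 against 1815.9 in the right separate arm. The H3K27me3 difference kept its sign on that scale, at 1139.2 against 634.7 bases per Mb in SIT, 528.1 against 795.3 for left separate, and 601.3 against 635.4 for right separate, where the conditions lay far closer than in kb.

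Gene by gene, the exercised minus sedentary summed width was compared with 0 over the 3 arms by an exact sign-flip permutation test (two-sided), which cannot give a p below 0.25. Map2 H4K8ac was lower in 3 of 3 arms, by a mean of -7.94 kb ± 8.45 (SD, n = 3 arms), with an exact p of 0.25, the smallest possible, and an adjusted p of 1.0 over 13 tests. Per Mb covered it was lower in 2 of 3 arms, by a mean of -67.7 bases ± 153.2 (exact p = 0.75). The 12 other tests in kb had exact p between 0.5 and 1.0. Gap43 H4K8ac was higher in 2 of 3 arms (mean 2.09 kb ± 3.12), as was Nefl H3K27me3 (mean 2.05 kb ± 4.70). Basp1, Marcks, Stmn2 and Ncam1 H4K8ac and Basp1 and Marcks H3K27me3 were higher in SIT and lower in both separate arms, and the spread between arms exceeded the mean for each of them. Per Mb covered, a scale added after the values in kb were seen, the genes with 1 direction in every arm were others. Gap43 H4K8ac was higher in 3 of 3 arms (mean 72.7 bases per Mb ± 66.7) and Ncam1 H4K8ac lower in 3 of 3 (mean -79.3 ± 70.9), each with an exact permutation p of 0.25 and an adjusted p of 1.0. Basp1 and Stmn2 H4K8ac turned their sign in every arm per Mb covered, lower in SIT and higher in both separate arms. On neither scale did a gene pass the test, and the design could not have reached 0.05.

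**Figure D4:**
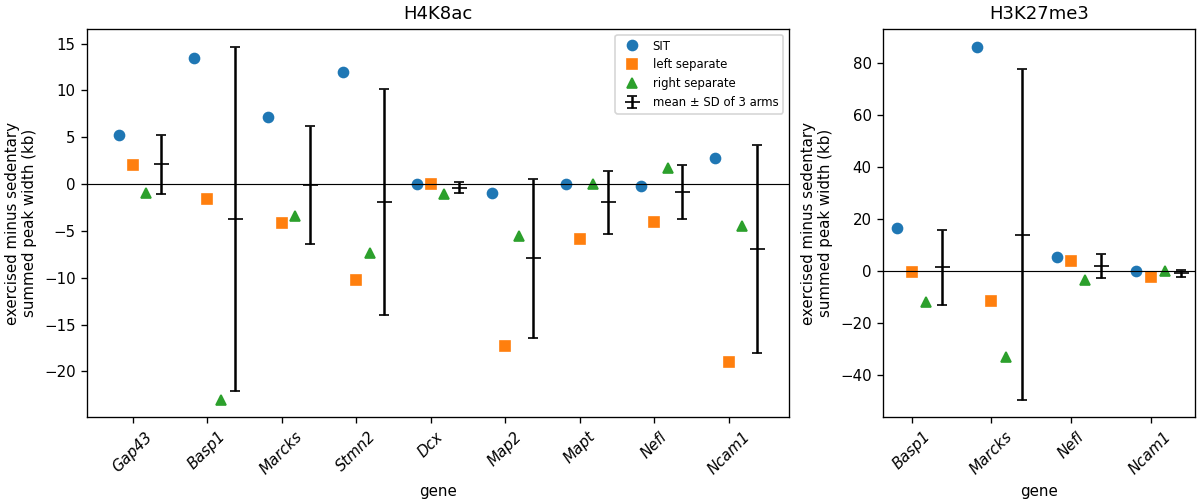
Exercised minus sedentary summed peak width in kb for each gene with a peak, per arm (symbols) and as mean ± SD over the 3 arms (black bars), for H4K8ac and H3K27me3. In kb, Map2 H4K8ac is below 0 in each arm, whereas Marcks H3K27me3 is 86.45 kb higher in SIT and lower in both separate arms. Per Mb covered, both turn their sign in the right separate arm.

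Peaks of the 10 genes were compared between conditions by position. With an overlap of at least 1 bp, 36 of 67 exercised H4K8ac peaks in SIT overlapped a sedentary peak (53.7%, against 43.9% of all peaks in that list), 16 of 25 in the left separate arm (64.0 against 73.1%), and 21 of 29 in the right separate arm (72.4 against 68.0%). In the opposite direction, 36 of 65, 16 of 65 and 18 of 40 sedentary peaks overlapped an exercised one (55.4, 24.6 and 45%, against 59.0, 25.2 and 35.6% of all peaks). For H3K27me3, 12 of 39, 12 of 16 and 10 of 10 exercised peaks did so (30.8, 75 and 100%, against 37.2, 61.4 and 94.7% of all). Of the sedentary H3K27me3 peaks 13 of 13, 11 of 18 and 10 of 19 did (100, 61.1 and 52.6%, against 98.1, 82.1 and 31.6%). For both marks and in each arm, the condition with fewer peaks at the 10 genes had the larger share of them overlapped. The marks themselves overlapped at 1 H4K8ac peak of the 10 genes, the Marcks peak described above, and in SIT exercised 0.700% of all H4K8ac peaks overlapped H3K27me3.

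When overlapping peaks of the 6 lists were merged, the 10 genes had 113 H4K8ac regions, of which 8 were present in all 6 lists and 56 in 1. These were 7.1 and 49.6% of the regions, against 6.0 and 49.9% of 63514 regions in the whole series. The 8 regions belonged to Basp1 (3), Stmn2 (3), Map2 (1) and Ncam1 (1). Of 35 H3K27me3 regions, 6 were in all 6 lists (17.1 against 16.7% of 27261), 5 of them at Marcks and 1 at Nefl. No region of either mark was present in the 3 exercised lists and absent from the 3 sedentary lists, or the reverse. Of all H4K8ac regions 0.104% had the first pattern and 0.847% the second, and of all H3K27me3 regions 0.125 and 0.0330%, so that 0 among so few regions is near the background. By class, 49.5% of the H4K8ac peaks of the 10 genes were intronic (37.4% of all H4K8ac peaks) and 16.2% were promoter peaks (23.5%). Basp1 gave 90 of the 291 H4K8ac peaks, 71 of them beyond its 3′ end, where the intron and exon classes refer to other transcripts. Of the H3K27me3 peaks of the 10 genes, 77.4% were distal intergenic (45.3% of all) and 0.9% promoter (20.3%), 85 of the 115 coming from Marcks. Median peak width was 1647 bp for H4K8ac (1620 bp over all peaks) and 2861 bp for H3K27me3 (3270 bp).

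**Figure D5:**
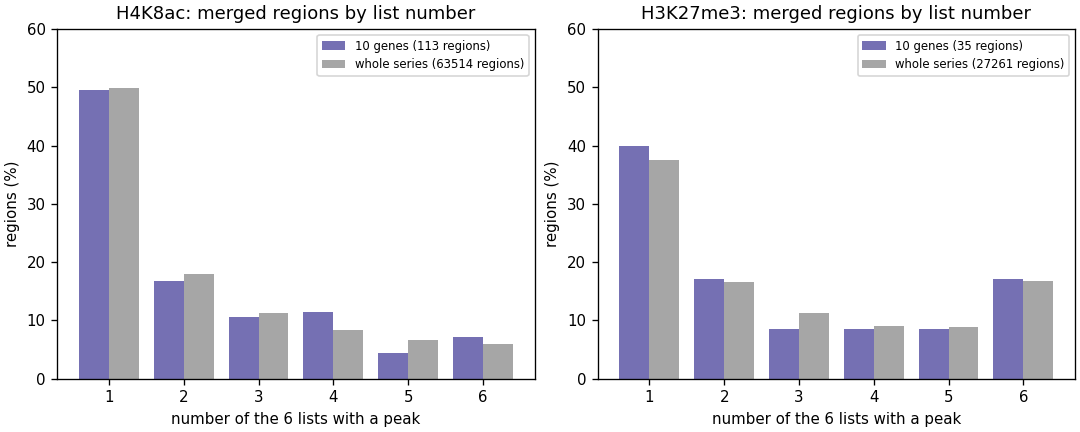
Percent of merged regions present in 1 to 6 of the lists of a mark, for the 10 genes (purple) and for the whole series (grey). For H4K8ac 49.6% of the regions of the 10 genes and 49.9% of all regions are in 1 list, and the shares in all 6 lists are 7.1 and 6.0%.

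Of a wider list of 40 other growth cone and cytoskeleton genes, 36 had H4K8ac in at least 1 list (90%, against 79.9% of all genes), 16 in all 6 lists (40 against 19.3%), and 33 as a promoter peak (82.5 against 57.0%). All genes here are the 16994 with a peak in any list, whereas 4 of the 40 had none. Over protein-coding genes of the reference table, the H4K8ac shares were 52.8, 12.5 and 39.4%, and 28.4% had H3K27me3 in at least 1 list. H3K27me3 was listed for 4 of the 40 (10%, against 43.5% of all genes and 4 of the 10 genes), namely Ank3, Chl1, Nefm and Nrcam, all of which also had H4K8ac, and these differences were not tested. At Ank3, the ankyrin of the axon initial segment, H3K27me3 was a promoter peak and was present in all 6 lists with 6 peaks (32.63 kb), beside 145 H4K8ac peaks (299.46 kb). Nrcam, an adhesion molecule of nodes and axons, had 5 H3K27me3 peaks in 5 lists (22.15 kb) and 73 H4K8ac peaks. Chl1, a related adhesion molecule, had 4 H3K27me3 peaks in 2 lists and 215 H4K8ac peaks (491.42 kb). Nefm, the medium neurofilament chain next to Nefl, had 3 H3K27me3 peaks in 2 lists and 6 H4K8ac peaks in 4. Both H3K27me3 lists were exercised, each longer than the sedentary list of its arm. None of the 40 was in the list of the same condition alone in all 3 arms, a pattern as rare over all genes as given above, and Ina, Kif5a, L1cam and Map6 had no peak. Of the 10 genes, Basp1, Marcks, Nefl and Ncam1 were listed for both marks, each in at least 1 list, as were 23.5% of all genes. Over protein-coding genes that share was 15.4%.

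The genes whose summed widths over the 12 lists were nearest to those of Gap43, by Euclidean distance, were Gm1604b (2.06 kb), Ndrg1 (2.52 kb) and 1700116B05Rik (2.90 kb). For Stmn2 they were Gm31333 (5.93 kb), Snx10 (7.03 kb) and 1700006F04Rik (7.61 kb), and for Map2 Pou5f2 (5.97 kb), Naaladl2 (6.27 kb) and Dusp6 (7.21 kb). These distances describe likeness over 12 pooled values and were not tested.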

How the data were processed

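Samples (CUT&RUN-seq for H4K8ac, H3K27me3 or IgG) were grouped by antibody, arm and condition from the labels. Per the methods and the labels, the authors aligned reads with Bowtie2 2.4.1 to mm10 (GRCm38.p6), called peaks with SEACR (stringent, 0.01), annotated them with ChIPseeker 1.8.6 (promoter within 3 kb of a start) and added symbols with biomaRt. The authors excluded exercised H4K8ac libraries, mostly of the separate arms, on their peaks and some animals of both conditions on their RNA data, and the way libraries were merged into lists is not given in the sources used here. The deposited peak tables hold positions and widths in bp, with no counts, signal or p-values, so they gave neither depth nor a count model. The paper also lists signal tracks and read files, which were not used here. Between 0.203 and 0.564% of peaks per list had no symbol.

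Gene coordinates came from GENCODE M21, in which all 25 transcripts assigned to the 10 genes had the coordinates given in the lists, and sequences from RefSeq GRCm38.p6. A gene counted as listed with 1 assigned peak or more. Overlap meant at least 1 bp. Differences over the 3 arms used an exact sign-flip permutation test (two-sided) with Benjamini-Hochberg adjustment over 13 tests. All 10 genes were named, with the 3 genes nearest in summed width for 3 of the 8 genes listed in at least 3 lists, and from the 40 other genes those listed for both marks. The genes, lists and tests were chosen with earlier results of these data known. Interval functions were tested on simulated data (50 of 50 sets matched). Tools were Python 3.11.15, numpy 2.4.6, pandas 2.3.3 and matplotlib 3.10.9. Alternatives are given in the closing section, and IgG samples were not used here.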

Additional observations from a re-analysis of the deposited data

Results flagged for a closer look

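Summed over the 10 genes, H4K8ac width was higher in the exercised list in SIT (39.38 kb) and lower in both separate arms (-60.12 and -44.16 kb), and H3K27me3 width likewise (108.59 kb in SIT, -9.94 and -47.96 kb in the separate arms). Each arm is 1 pair of pooled lists, and the difference between arms was not tested. As a share of covered bases the H4K8ac differences had the opposite sign in each arm. Marcks made up 82.1% of the H3K27me3 width in the SIT exercised list.

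A total of 9 H4K8ac peaks lay over one of the 10 genes or within 10 kb of it but were assigned to another gene, and therefore entered none of the counts of assigned peaks. Of these, 6 in 4 lists lay beside the Basp1 start and were assigned to Gm5468, 2 in the SIT and left separate sedentary lists lay beyond the 3′ end of Mapt and were assigned to Kansl1, and 1 in the SIT exercised list lay in intron 1 of Gap43 and was assigned to Mir6540. The last is 1 of the 183 H4K8ac peaks counted over the genes by position.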

How the results depend on the processing

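No paired analysis was possible because each list pools its group and carries no replicate number, and leaving out a replicate was not possible for the same reason. The depth behind the lists is unknown, so a gene without a peak is one with no call at this setting. Assignment to the nearest gene decides which distal peaks belong to Basp1 and Marcks.

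With promoter peaks alone, H4K8ac genes numbered 5 and 5 (SIT sedentary and exercised), 7 and 2 (left separate) and 4 and 6 (right separate), against 26.1 and 40.6%, 38 and 15%, and 28.3 and 17.9% of all genes. H3K27me3 genes numbered 1 in left separate exercised (16.7% of all genes) and 0 elsewhere (11.2 to 21.0%). Transcript starts lay inside H4K8ac peaks for 3 and 2, 3 and 1, and 2 and 2 genes in the same order, against 15.6 and 32.0%, 24.5 and 10%, and 21.1 and 11.6% of 16624 genes, and inside H3K27me3 peaks for 0 (8.48 to 17.1%). For H3K27me3, the widest 50% of each list left 1 gene in SIT sedentary (14.3% of all genes) and right separate exercised (13.3%) and 2 in left separate sedentary (17.9%). Requiring 2 peaks left 2 in left separate sedentary (13.1%) and 1 in right separate exercised (9.55%), and leaving out distal intergenic peaks left 0 in right separate exercised (15.5%). The cause was not tested.

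The summed H4K8ac difference (kb) was 8.57, -20.06 and -1.95 in SIT, left and right separate for promoter peaks alone, 16.48 in SIT without distal intergenic peaks, and -0.28 and -18.7 in left and right separate at equal numbers of peaks. As a share of covered bases it turned to -518.9, 416.8 and 538.0 bases per Mb. Gene by gene on that scale, a setting added after seeing the data, the mean over the arms turned positive for Basp1 (89.4), Marcks (8.5) and Stmn2 (157.1) H4K8ac and kept its sign in the other tests. The H3K27me3 difference was 0.0, 3.34 and 0.0 for promoter peaks alone, 34.72, 4.15 and -17.97 without distal intergenic peaks, and 53.25, -17.1 and -25.31 at equal numbers, so that left separate turned positive under the first 2 settings.

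With a reciprocal overlap of 50%, 18 H4K8ac peaks per SIT list overlapped the other condition (26.9% of the exercised and 27.7% of the sedentary peaks, against 24.1 and 30.2% of all peaks), 9 per left separate list (36 and 13.8%, against 43 and 14.4%) and 10 per right separate list (34.5 and 25%, against 39.2 and 21.4%). For H3K27me3 these were 5 per SIT list (12.8 and 38.5%, against 24.8 and 61.9%), 8 per left separate list (50 and 44.4%, against 41.3 and 52.1%) and 3 per right separate list (30 and 15.8%, against 31.5 and 14.3%). The overlap of the marks at Marcks fell to 0. Counting genes with overlapping peaks as shared changed no gain or loss.

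Over protein-coding genes of the reference table, the background of listed genes was 33.3 and 41.8% (SIT sedentary and exercised), 40 and 19.8% (left separate), and 32.1 and 22.4% (right separate) for H4K8ac, and 14.7 and 24.8%, 17.9 and 19.9%, and 23.3 and 13.4% for H3K27me3. In at least 1 list 52.8% were listed for H4K8ac and 28.4% for H3K27me3, and in all 6 lists 12.5 and 10.7%. Genes in the exercised or the sedentary list alone were 13 and 4.63%, 1.47 and 21.6%, and 3.29 and 13% for H4K8ac, and 10.4 and 0.247%, 4.02 and 2.04%, and 0.685 and 10.6% for H3K27me3, these shares being lower because the reference table holds more genes without a peak.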
